A study of Mus musculus with 8 samples.

Results

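Interferon-stimulated genes are the genes that cells switch on when interferons bind their receptors, and 9 of them, chosen by symbol, were followed here: Ifitm3, Ifitm2, Bst2, Isg15, Ifit1, Ifit3, Irgm1, Irf1 and Irf7. All 9 were found among the 17580 gene identifiers of the library tables, and 8 of them, all but Ifit3, were also listed in the deposited expression table of 6933 genes. The cells came from tumours that 4T1 cells, a mouse mammary carcinoma line, formed under the skin of Balb/c mice in 10 days. Tumour pieces were dissociated for 1 h with a bacterial protease at 37C or at 4C, either without inhibitor or with 2 nM actinomycin D, which blocks transcription, and heaters were fitted only to the dissociator used at 37C, so temperature and instrument cannot be told apart. The 4 groups were 37C without inhibitor, 37C with inhibitor, 4C without inhibitor and 4C with inhibitor. Every group was 1 suspension pooled from 6 tumour pieces of different mice and split into the aliquots A and B, each of which became 1 droplet library. The p-values below therefore measure the spread between aliquots of 1 suspension, not between tumours or dissociations.

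Interferons signal through Janus kinases to STAT transcription factors. Type I interferons assemble a complex of STAT factors and IRF9 that binds the interferon-stimulated response element (ISRE), while interferon gamma acts mainly through STAT dimers at the gamma-activated site (GAS). The described genes fall into 3 roles. Ifitm3, Ifitm2 and Bst2 (tetherin) encode membrane proteins that hinder virus entry or release. Isg15, a ubiquitin-like modifier, Ifit1 and Ifit3, which belong to a family that binds viral RNA or its partner proteins, and Irgm1, an immunity-related GTPase of the interferon gamma response, act inside the cell. Irf1 and Irf7 are transcription factors that carry the response further, Irf7 being best known for amplifying type I interferon production.

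On GRCm38 the genes lie on chromosomes 4, 7, 8, 11 and 19. Ifitm2 (chr7:140954837-140955987) and Ifitm3 (chr7:141009586-141010770) are paralogs 53.6 kb apart on the minus strand, and Irf7 (chr7:141262706-141266481) follows 252 kb beyond Ifitm3. Ifit3 (chr19:34583531-34588731) and Ifit1 (chr19:34640871-34650009) are 52.1 kb apart on the plus strand. Irgm1 (chr11:48861968-48871683, minus strand), Irf1 (chr11:53770014-53778374, plus strand), Isg15 (chr4:156199424-156200818, minus strand) and Bst2 (chr8:71534255-71537456, minus strand) lie apart from the other described genes. Ifit3 has a near-identical copy, Ifit3b, so its 16 UMIs (unique molecules) are uncertain. Irf7 overlaps Phrf1 on the opposite strand, and the sources used here do not say whether counting used the strand. Phrf1 had 56 UMIs in annotated cells, while the other overlapping genes, Gm17334 at Irf1 and Gm45717 at Ifitm2, had 0.

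The regulatory letters of these genes are shown because the interferon factors named above bind letters of these kinds. In RefSeq promoters of build GRCm38.p6 (250 bases before to 50 bases after a start), the ISRE half-site pair GAAANNGAAA, or TTTCNNTTTC on the other strand, was present in 7 of the 9 genes and in 3.44% of all 32851 promoters. The GAS letters TTCNNNGAA, which read the same on both strands, were present in Ifitm3, Bst2 and Irf1 and in 8.30% of all promoters. Neither was found in the Irf7 window or in the second Irf1 window. Capitals mark the matches, which overlap each other in Isg15, Irgm1 and Bst2, and in Bst2 the GAS letters run into the ISRE pair. The windows are Isg15 at chr4:156200863-156200908, Irgm1 at chr11:48871428-48871457, Bst2 at chr8:71537575-71537620 and Ifitm2 at chr7:140955991-140956014, all on the minus strand, and Ifit1 at chr19:34640773-34640825 and Irf1 at chr11:53769912-53769944 on the plus strand.
Isg15: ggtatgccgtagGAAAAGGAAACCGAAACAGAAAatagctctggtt
Irgm1: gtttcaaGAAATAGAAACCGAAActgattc
Bst2: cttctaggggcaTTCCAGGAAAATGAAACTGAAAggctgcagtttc
Ifitm2: ccaacagGAAAAGGAAAttgctag
Ifit1: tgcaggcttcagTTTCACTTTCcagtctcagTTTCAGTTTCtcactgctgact
Irf1: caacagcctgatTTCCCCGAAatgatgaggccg
A match describes the letters of a window and is not evidence of binding.

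The deposited annotation held 654 cells, of which 325 were tumour cells, 154 T cells, 109 macrophages and 66 NK cells. The summed depth per library ranged from 158314 to 199929 UMIs at 37C and from 23212 to 65149 at 4C, so a gene's value at 4C rests on fewer molecules. Of their own markers, macrophages and T cells had 10 of 10 with a UMI, and NK cells 8 of 8. Tumour cells had 5 of 8 epithelial markers, with Epcam, Cdh1 and Cldn7 at 0. Such counts do not separate the types. Tumour cells also had 10 of 10 macrophage markers, and NK cells 10 of 10 T cell markers. Macrophage markers gave 3549 of 148494 UMIs in macrophages and 108 of 582389 in tumour cells. T cell markers gave 1135 of 121314 UMIs in T cells and 209 of 51771 in NK cells. T cells also held 71 of the 104 conventional dendritic cell and 18 of the 26 B cell marker UMIs. Of cells annotated as macrophages, 2 of 92 at 37C and 6 of 17 at 4C had no UMI of any of the 10 macrophage markers. Macrophages made up 14.8% to 30.8% of annotated cells at 37C and 2.94% to 13.6% at 4C. Only 1 barcode was annotated in more than 1 library.

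Ifitm3 was by far the most often counted of the genes, with 1756 UMIs in 364 of the annotated cells, followed by Ifitm2 with 420, Irf1 with 254, Irgm1 with 221, Irf7 with 178, Isg15 with 121, Bst2 with 72, Ifit1 with 41 and Ifit3 with 16. Such totals depend on how well the 3' end of each transcript is captured, so they say how firmly each gene was measured, not which is expressed most. The UMIs of Ifit1 and Ifit3 were concentrated in few cells: 5 cells held 46.3% of the Ifit1 and 50% of the Ifit3 UMIs, against 7.69% for Ifitm3. A single tumour cell of the 37C library B without inhibitor, with 3906 UMIs in all, had 8 Ifit1 and 4 Ifit3 UMIs, the highest count of either gene in any annotated cell. In Isg15, 33.9% of UMIs lay in 5 cells. The highest Isg15 count, 13 UMIs, lay in a macrophage of the 37C library B with inhibitor, with 3494 UMIs in all. Macrophages held 42 Isg15 UMIs in all libraries. The highest Irf7 count, 11 UMIs, also lay in a macrophage of that library with 3494 UMIs.

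Levels by cell type are given as CPM, the UMIs of a gene per 1000000 UMIs of the cells summed, for libraries with at least 5 cells of a type, and as a description, since the types were named from the expression of the same cells. Macrophages had the highest mean CPM for both membrane proteins of the Ifitm family, although by the authors' log values per cell Ifitm3 was highest in tumour cells. Ifitm3 stood at 3181 CPM ± 1456 (SD, n = 6) in macrophages and 1842 ± 356 (SD, n = 8) in tumour cells, with macrophages higher in 5 of 6 libraries. T cells and NK cells were far lower, at 293 ± 308 (SD, n = 8) and 156 ± 138 (SD, n = 6), and tumour cells lay above T cells in 8 of 8 libraries. T and NK cells did not differ beyond their spread. Ifitm2 followed the same order, with 939.7 CPM ± 415 in macrophages, 348 ± 135 in tumour cells, 251 ± 92.8 in T cells and 97.4 ± 166 in NK cells, and macrophages were above tumour cells in 6 of 6 libraries. Tumour and T cells were close, tumour cells being higher in 6 of 8 libraries.

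Irf7 and Isg15 were also highest in macrophages by the mean, with wider spread. Irf7 had 508 CPM ± 392 in macrophages, 283 ± 167 in NK cells, 181 ± 185 in T cells and 124 ± 60.9 in tumour cells, and macrophages exceeded tumour cells in 4 of 6 libraries. Summed over all libraries, Irf7 reached 525 CPM in macrophages (exact Poisson 95% interval 415 to 656) and 117 in tumour cells (90.7 to 148). These intervals cover counting error only. Of the 78 Irf7 UMIs in macrophages, 57 lay in the 37C libraries with inhibitor, at 567 to 751 CPM. At 37C without inhibitor macrophages had 94.9 to 334 CPM from 11 UMIs, and NK cells 321 to 476 from 7 UMIs. The few macrophages at 4C held 1 Irf7 UMI without and 9 with inhibitor. Isg15 had 273 CPM ± 238 in macrophages, 113 ± 112 in tumour cells, 101 ± 112 in NK cells and 58.5 ± 72.5 in T cells, so the neighbours in this order overlapped.

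Irgm1 and Irf1 had their highest means in tumour cells. Irgm1 had 387 CPM ± 209.8 in tumour cells, above T cells in 8 of 8 libraries and above macrophages in 5 of 6. Its mean in macrophages, 368 ± 563, rested on the 4C library B with inhibitor, where 4 UMIs in 5 cells gave 1512 CPM; over libraries with at least 10 macrophages it was 132 ± 74.3 (SD, n = 4). In that library, 3 of the 5 cells annotated as macrophages had no macrophage marker. Of the 5, 2 held 7 and 16 UMIs of plasmacytoid dendritic cell markers (Klk1, Ccr9 and Tcf4), of which Klk1 gave 3 and 14. Siglech, the other marker of that list, was at 0 in both, and tumour cells also held UMIs of Klk1 and Tcf4. These 2 cells held 1 Irgm1 UMI each, and another cell, with no macrophage marker, held the other 2. Irf1 had 352 CPM ± 111 in tumour cells, 305 ± 243 in T cells, 240.0 ± 258 in macrophages and 210.1 ± 164 in NK cells. Tumour, T and NK cells did not differ beyond their spread, and tumour cells were above T cells in 4 of 8 libraries. The Irf1 mean in macrophages leaned on the same 4C library B with inhibitor, at 756 CPM. Over libraries with at least 10 macrophages it was 128 ± 63.4 (SD, n = 4), and tumour cells were above macrophages in 5 of 6 libraries.

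Bst2 and the Ifit genes were too sparse for a firm order. Bst2 had 60 UMIs in tumour cells, 9 in macrophages, 3 in T cells and 0 in NK cells, a count that allows up to 71.3 CPM there (upper exact Poisson 95% limit). Its mean was 131 CPM ± 141 in macrophages and 105 ± 30.9 in tumour cells, but the sums over all libraries had the opposite order, 60.6 and 103 CPM. Ifit1 had its highest mean in T cells, at 217 CPM ± 234 from 19 UMIs, and T cells were above tumour cells in 7 of 8 libraries; tumour cells had 29.5 ± 40.6, macrophages 25.4 ± 41.1 and NK cells 13.4 ± 32.7. Ifit3, with 11 UMIs in tumour cells, 3 in T cells and 1 each in macrophages and NK cells, was too sparse to be ordered, although its mean was also highest in T cells (34.5 CPM ± 66.6, 6 of 8 libraries at 0).

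**Figure D1:**
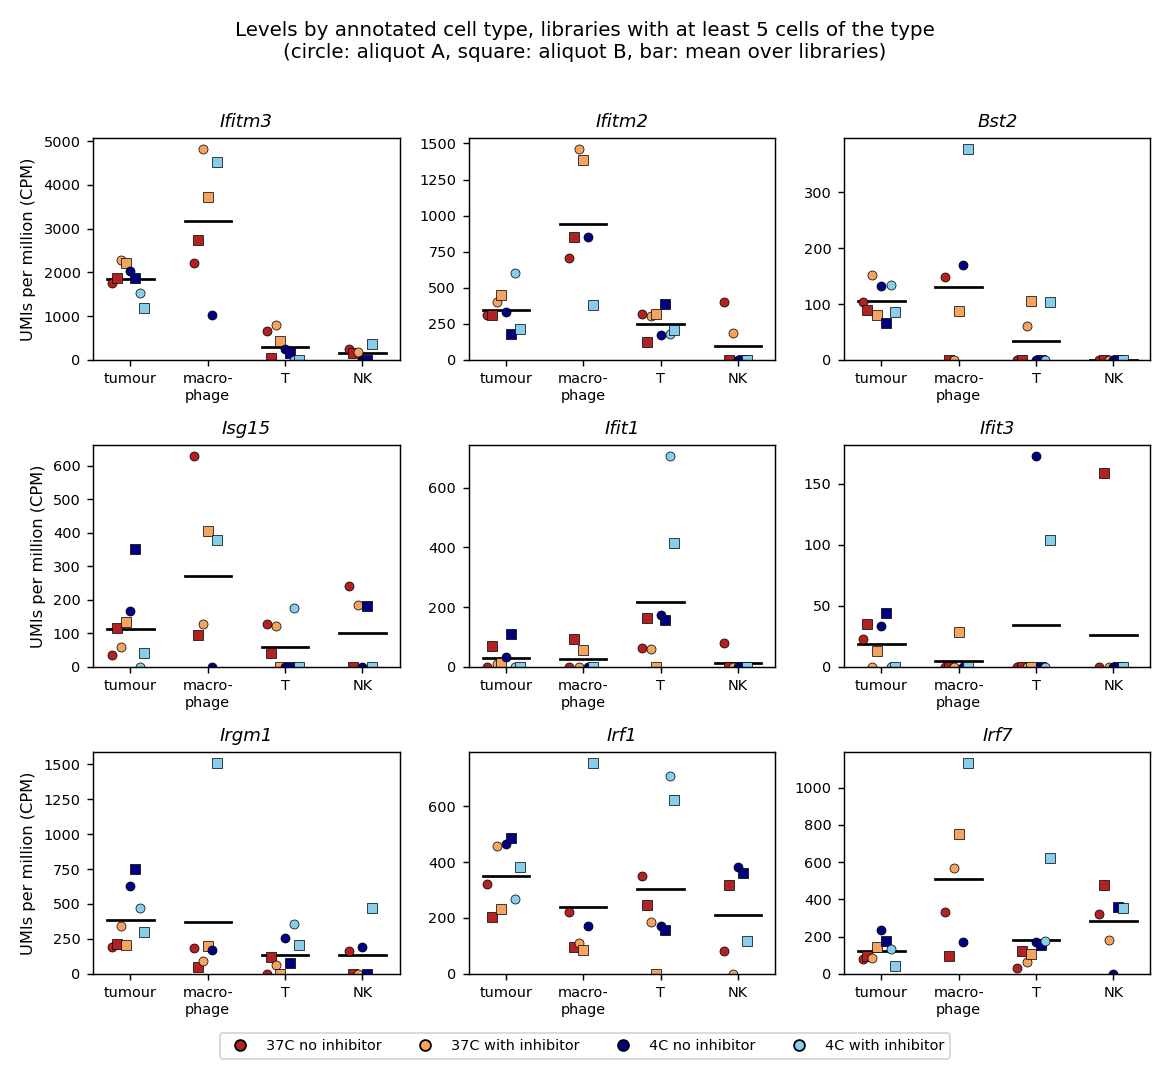
Level of each gene (y axis, CPM) in tumour cells, macrophages, T cells and NK cells, 1 point per library with at least 5 cells of the type, coloured by group, with circles for aliquot A, squares for aliquot B and a bar at the mean. Ifitm3 and Ifitm2 sit highest in macrophages, Irgm1 in tumour cells sits above T cells in 8 of 8 libraries, and the isolated high macrophage points of Irgm1, Irf1, Irf7 and Bst2 come from the 5 cells of the 4C library B with inhibitor.

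Across the annotated cells, 2 of these genes differed between the temperature groups, in opposite directions. Ifitm3 was higher and Irgm1 lower at 37C than at 4C when the contrasts without and with inhibitor were averaged. In these sums over all types, fewer cells of a type and less RNA per cell cannot be told apart. Of the 8 genes tested, 1 rose and 1 fell, against 3.98% of the 3391 genes called in either direction (2.74% higher and 1.24% lower). The median log2 fold change of the 8 was -0.19, and that of all genes 0.04.

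Ifitm3 measured 1497 and 1647 CPM in aliquots A and B at 37C without inhibitor, 2741 and 2371 at 37C with inhibitor, 1328 and 1397 at 4C without inhibitor, and 1379 and 969.8 at 4C with inhibitor. All 4 libraries at 37C lay above all 4 at 4C, and the pair at 37C with inhibitor stood well above the rest. The averaged temperature difference was 0.74 ± 0.17 (log2, SE; adjusted p = 0.0163, edgeR quasi-likelihood test). With inhibitor it was 1.26 ± 0.25 (adjusted p = 0.00898, edgeR), and without inhibitor 0.22 ± 0.24 (adjusted p = 0.814, edgeR). The difference between these contrasts, 1.04 ± 0.35, did not pass (adjusted p = 0.417, edgeR interaction term).

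The macrophage markers moved with Ifitm3 across these sums, at 1944 to 3563 CPM at 37C without inhibitor, 4880 to 8413 at 37C with inhibitor, 599 to 1840 at 4C without inhibitor and 451 to 732 at 4C with inhibitor. Within tumour cells, where the same markers summed to 42.5 to 400 CPM, the averaged Ifitm3 difference was 0.33 ± 0.17 (log2, SE; adjusted p = 0.391, edgeR), which did not pass the threshold. Within macrophages Ifitm3 measured 2225 and 2751 CPM at 37C without inhibitor and 4828 and 3726 with inhibitor. These pairs did not overlap, and the share of all genes with this order was not computed. Macrophages were not tested, since the 4C libraries held only 1 to 8 of them each. Barcodes with fewer than 200 UMIs, which were not annotated, had 1285 to 2663 CPM of Ifitm3 at 37C and 501 to 1027 at 4C, so the ordering was present there too. The part of cell composition and of free RNA in the Ifitm3 difference was not tested. Ifitm3 lost its call when each library was thinned to the depth of the smallest (0.23, adjusted p = 0.549, edgeR), when aliquots were summed (adjusted p = 0.129) and without the 37C library B lacking inhibitor (adjusted p = 0.0579). Its call with inhibitor was lost on thinning (0.61, adjusted p = 0.331, edgeR) and without the 4C library B with inhibitor (adjusted p = 0.132).

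Irgm1 ran the other way. It measured 152 and 170.1 CPM at 37C without inhibitor, 230.1 and 194 at 37C with inhibitor, 455 and 537 at 4C without inhibitor, and 388 and 383 at 4C with inhibitor. Every library at 37C was below every library at 4C. The averaged difference was -1.18 ± 0.25 (log2, SE; adjusted p = 0.00848, edgeR), and without inhibitor it was -1.61 ± 0.34 (adjusted p = 0.0152, edgeR), where 1.06% of genes were called. With inhibitor it was -0.75 ± 0.37 (adjusted p = 0.386, edgeR), where 1.8% of genes were called. In unannotated barcodes with fewer than 200 UMIs, Irgm1 measured 277 and 242 CPM at 37C and 527 and 568 at 4C without inhibitor, so the ordering was present there too. With inhibitor it measured 428 and 268 at 37C and 179 and 359 at 4C, which overlap. The part of free RNA in the Irgm1 difference was not tested. The averaged call was lost without the 4C library B with inhibitor (adjusted p = 0.152) and, with like fold changes, when aliquots were summed (adjusted p = 0.0560); thinning gave -1.82 (adjusted p = 0.0572, edgeR) and no filter -0.89 (adjusted p = 0.0891, edgeR). The call without inhibitor was lost without either 37C library of that group (adjusted p = 0.107 and 0.0570), without its 4C library B (adjusted p = 0.218), on thinning (adjusted p = 0.399) and with no filter (adjusted p = 0.0673, all edgeR).

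Irf1 had the same ordering as Irgm1 without passing the test. It measured 291 and 201 CPM at 37C without inhibitor, 315 and 194 at 37C with inhibitor, 360.4 and 399 at 4C without inhibitor, and 474 and 406 at 4C with inhibitor. The 4 libraries at 37C lay below the 4 at 4C, as they did for 4.31% of genes, and the reverse order of Ifitm3 was seen in 5.37%. Its averaged difference was -0.64 ± 0.27 (log2, SE; adjusted p = 0.220, edgeR).

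The remaining genes overlapped between temperatures. Ifitm2 measured 340.2 to 670.2 CPM at 37C and 180.4 to 560.1 at 4C, with a difference of 0.78 ± 0.29 (adjusted p = 0.151, edgeR) that passed in 4 alternatives, among them without the 4C library A of either inhibitor group (1.06 and 1.28, adjusted p = 0.0267 and 0.0247). Ifit1, at 10.0 to 85.1 CPM from 2 to 14 UMIs a library at 37C and 56.9 to 172 from 3 to 7 UMIs at 4C, differed by -1.74 ± 0.65 (adjusted p = 0.150, edgeR). Irf7 (-0.47 ± 0.28), Isg15 (0.39 ± 0.47) and Bst2 (0.08 ± 0.46) had adjusted p from 0.423 to 0.959. Ifit3, with 0 to 5 UMIs in a library, was not tested.

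**Figure D2:**
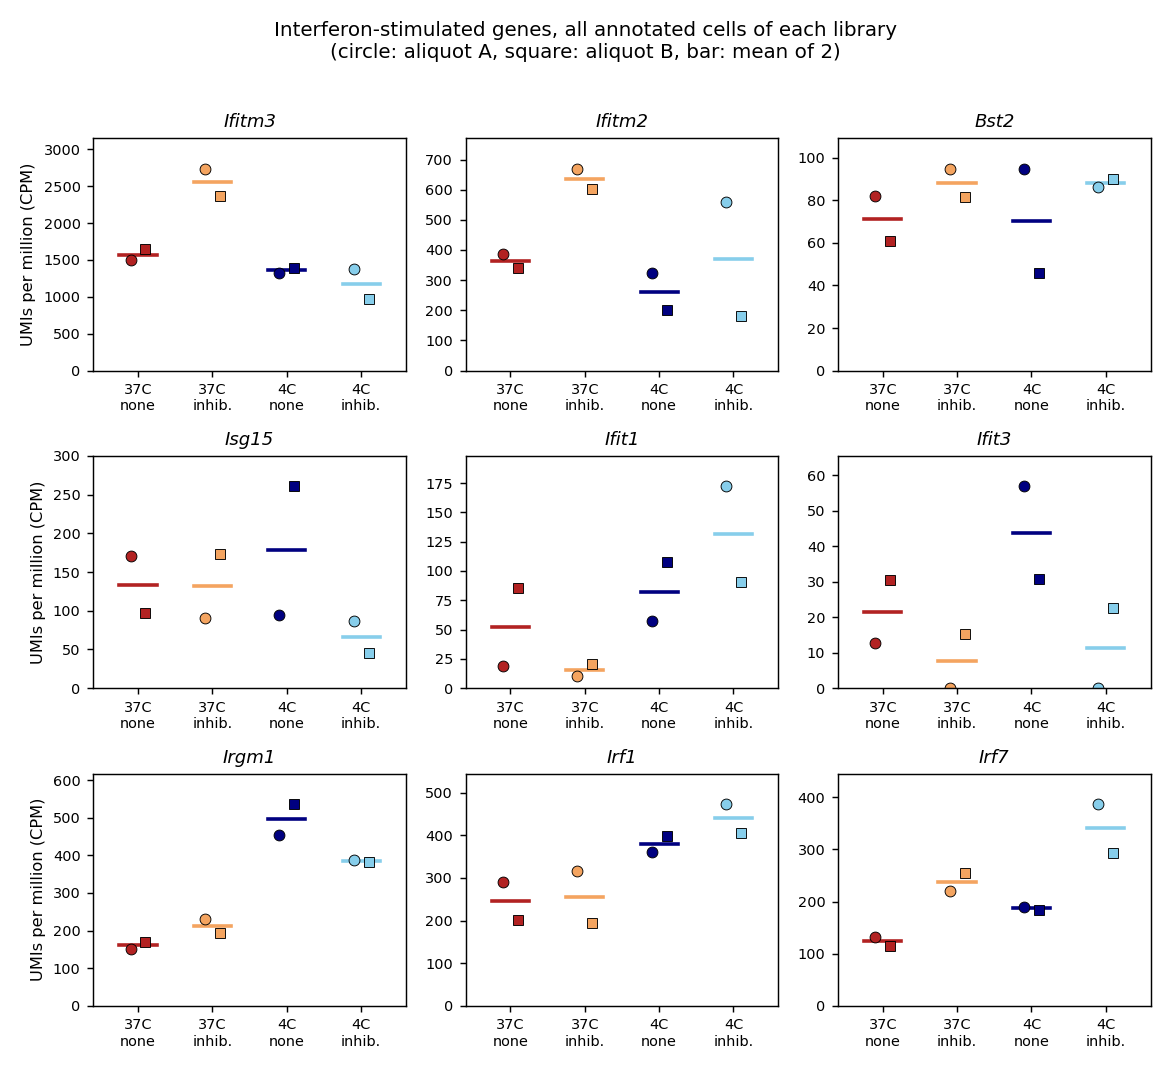
Level of each gene in all annotated cells (y axis, CPM, from 0) by group (x axis), with circles for aliquot A, squares for aliquot B and bars for the mean of the 2. Ifitm3 at 37C with inhibitor (2741 and 2371) stands above the other groups, and Irgm1 at 37C (152 to 230.1) lies below 4C (383 to 537).

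Actinomycin D gave no call among these genes in all annotated cells. At 37C, 0 of 8 passed in edgeR and 0 in DESeq2, where edgeR called 1.21% of all genes. At an unadjusted p under 0.05 in edgeR there were 3 of the 8, all higher with inhibitor. Of all 3391 genes, 286 had such a p, 107 of them higher. The 3 were Ifitm3 (0.73 ± 0.23, adjusted p = 0.142), Irf7 (0.96 ± 0.32, adjusted p = 0.215) and Ifitm2 (0.84 ± 0.34, adjusted p = 0.398). In all 3 both libraries with inhibitor lay above both without, an order whose share over all genes was not computed. The means of these 3 were highest in macrophages, as given above, and the macrophage marker level at 37C was higher with inhibitor. Within macrophages at 37C the 3 were also higher with inhibitor, Ifitm3 as given above. There Irf7 measured 94.9 to 334 CPM without and 567 to 751 with inhibitor, and Ifitm2 705 to 854 and 1386 to 1463. The macrophage markers were higher there as well, at 14469 to 20395 and 25646 to 30027 CPM. The part of cell composition in the values of the 3 genes was not tested. At 4C and for the interaction, 0 of 8 passed in edgeR and 0 in DESeq2, where 0% of genes were called, with 1 gene each at an unadjusted p under 0.05: Isg15 at 4C (-1.68 ± 0.80) and Ifitm3 for the interaction. Of all 3391 genes, 172 and 250 had such a p in these 2 contrasts.

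Tumour cells were then examined apart. Macrophage markers in these cells summed to 57.2 to 70.8 CPM at 37C without inhibitor, 229 to 400 at 37C with inhibitor, 66.5 to 88.2 at 4C without inhibitor and 42.5 to 66.8 at 4C with inhibitor. Without inhibitor, Irgm1 was again lower at 37C, and 2 relatives of the same GTPase family, Igtp and Ifi47, fell with it, while Ifitm3 was nearly level. Bst2, Ifit1 and Ifit3 were too low to be tested there, which left 6 of the 9. Of these, 1 fell and 0 rose without inhibitor, against 2.11% of 1756 genes called (1.37% higher and 0.74% lower). Their median log2 difference was -1.04, beside -0.01 over all genes, and 5 of the 6 had a negative sign, as did 900 of all 1756 genes.

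Irgm1 in tumour cells measured 195 and 212 CPM at 37C without inhibitor, 339 and 207 at 37C with inhibitor, 632 and 749 at 4C without inhibitor, and 468 and 297 at 4C with inhibitor. The pair at 4C without inhibitor stood above every other library, and the groups with inhibitor overlapped. The difference without inhibitor was -1.78 ± 0.38 (log2, SE; adjusted p = 0.00499, edgeR), and with inhibitor -0.40 ± 0.50 (adjusted p = 0.856, edgeR). The averaged difference, -1.09 ± 0.32, missed the threshold (adjusted p = 0.0670, edgeR), and the interaction, 1.38 ± 0.61, did too (adjusted p = 0.647, edgeR). The averaged difference passed when aliquots were summed (-1.21, adjusted p = 0.0411) and without the 37C library A with inhibitor (-1.26, adjusted p = 0.0499, both edgeR). The call without inhibitor was lost without the 4C library B of that group (-1.51, adjusted p = 0.306) and with no filter on low counts (-1.46, adjusted p = 0.0973).

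Isg15 in tumour cells measured 34.3 and 115 CPM at 37C without inhibitor, 59.3 and 133 at 37C with inhibitor, 166 and 353 at 4C without inhibitor, and 0 and 42.5 at 4C with inhibitor. It was highest at 4C without inhibitor and lowest at 4C with inhibitor, where the pair held 1 UMI. Its temperature difference without inhibitor was -1.79 ± 0.63 (adjusted p = 0.162, edgeR). Irf1 measured 320.4 and 204 CPM, 457 and 233, 466 and 485, and 267 and 382 in the same order of groups, with a difference without inhibitor of -0.90 ± 0.41 (adjusted p = 0.341, edgeR). Irf7 measured 80.1 and 97.4 CPM, 84.7 and 147, 233 and 176, and 134 and 42.5, with a difference of -1.17 ± 0.63 (adjusted p = 0.464, edgeR). In each of Isg15, Irf1 and Irf7, both libraries at 4C without inhibitor were above both at 37C without inhibitor, and none passed the test. The share of all genes with this order was not computed.

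Ifitm3 in tumour cells measured 1751 and 1868 CPM at 37C without inhibitor, 2279 and 2206 at 37C with inhibitor, 2029 and 1873 at 4C without inhibitor, and 1538 and 1189.5 at 4C with inhibitor. It was highest at 37C with inhibitor, where the macrophage markers were too, and lowest at 4C with inhibitor; the part of RNA from macrophages was not tested. The temperature difference was -0.12 ± 0.22 without inhibitor (adjusted p = 0.881, edgeR) and 0.79 ± 0.26 with it (adjusted p = 0.290, edgeR), where 0.0569% of genes were called. That second difference passed without either 4C library lacking inhibitor (1.09 and 1.05, adjusted p = 0.00753 and 0.0224) and with no filter (1.35, adjusted p = 0.00459). Ifitm2 spanned 309 to 446 CPM at 37C and 176 to 602 at 4C, which overlap, and Bst2 spanned 80.0 to 152 and 66.1 to 134. Of Ifit1 and Ifit3, the 4C libraries with inhibitor held 0 UMIs in tumour cells, among 38498 UMIs in all. Tumour cells at 37C had only 23.5 and 17.1 CPM of them, so at that depth 0 UMIs does not show a lower level.

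**Figure D3:**
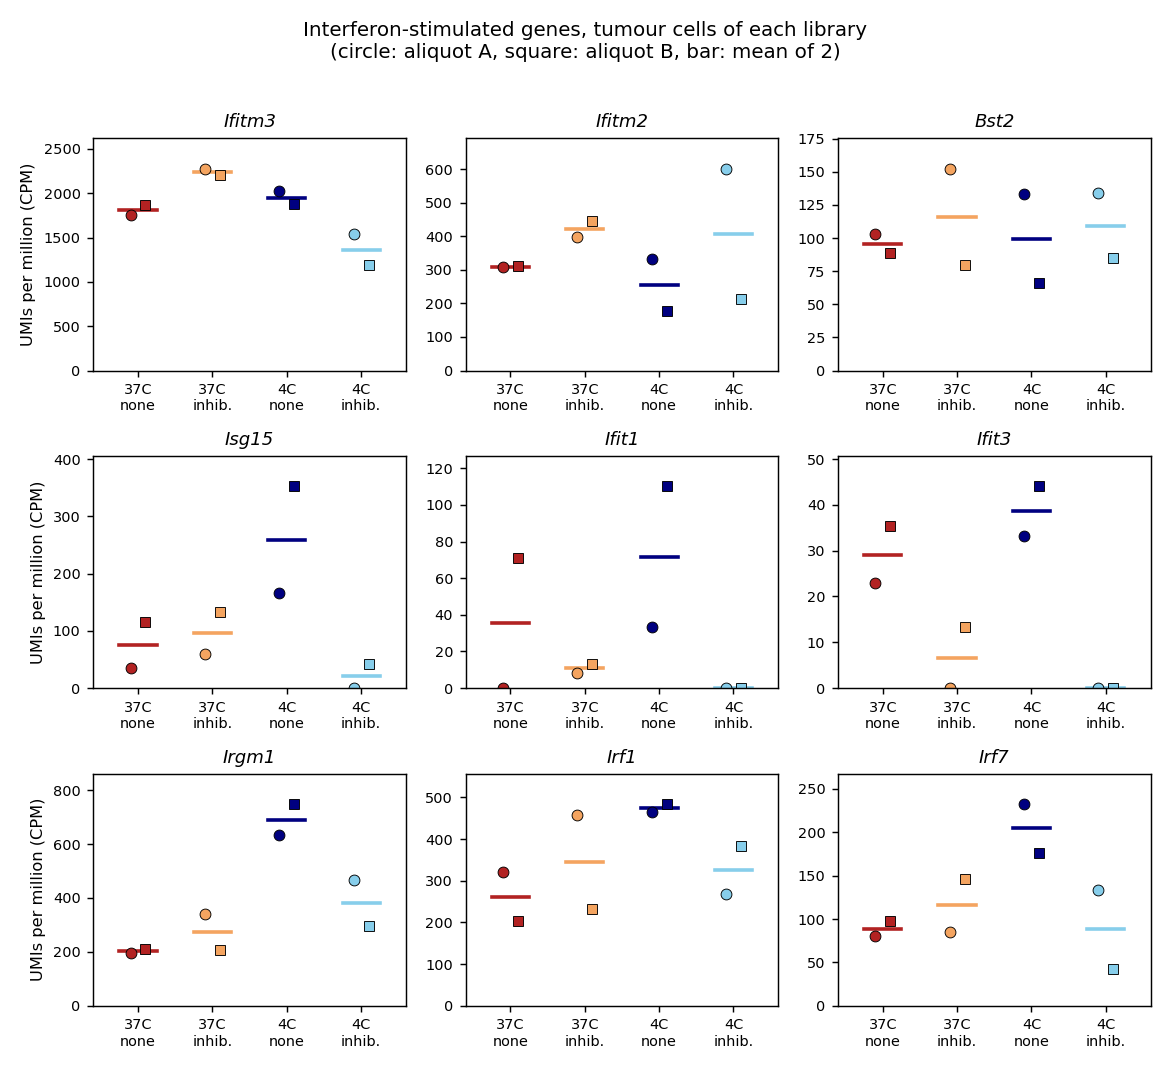
Level of each gene in tumour cells (y axis, CPM, from 0) by group (x axis), with circles for aliquot A, squares for aliquot B and bars for the mean of the 2. Irgm1 at 4C without inhibitor (632 and 749) stands above every other library. Isg15, Irf1 and Irf7 at 4C without inhibitor lie above 37C without inhibitor, without passing the test, and the share of all genes with this order was not computed.

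For the averaged temperature contrast in tumour cells, 0 of the 6 passed in edgeR and 0 in DESeq2, where edgeR called 1.42% of genes. At an unadjusted p under 0.05 there was 1 of the 6 (Irgm1), beside 230 of all 1756 genes. For 0 of the 6 did all libraries at 37C lie above, or all below, those at 4C, which held for 4.73% and 3.87% of genes. With inhibitor the temperature contrast also gave 0 in both tools, with 1 at an unadjusted p under 0.05 (Ifitm3), beside 140 of all 1756 genes. The inhibitor gave 0 calls at 37C in both tools, where edgeR called 0.911% of genes. There 0 of the 6 had an unadjusted p under 0.05, beside 107 of all 1756 genes. All 6 differences were positive (0.28 to 0.42), as were 850 of all genes. At 4C the inhibitor gave 0 calls in both tools. At an unadjusted p under 0.05 there were 3, all lower, beside 90 of all 1756 genes, 49 of them lower. The 3 were Isg15 (-3.40 ± 1.18, adjusted p = 0.773), Ifitm3 (-0.63 ± 0.27, adjusted p = 0.871) and Irgm1 (-1.02 ± 0.48, adjusted p = 0.871, all edgeR). The same 3 had an unadjusted p under 0.05 for the interaction, beside 121 of all 1756 genes. Their adjusted p there were 0.611, 0.611 and 0.647 (edgeR), and 0 of all genes passed for either contrast. Within T cells none of the 9 was abundant enough to be tested.

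A wider list of 78 pathway genes (interferons, receptors, kinases, STAT and IRF factors, inhibitors and other induced genes) places these results. In the annotated cells 70 of them had at least 1 UMI. In all annotated cells 43 were tested for the averaged temperature contrast, and 0 rose and 2 fell, which is 4.65% beside the 3.98% called of all genes, with a median log2 difference of -0.32 beside 0.04 over all genes. The 2 were Ifngr1, a chain of the interferon gamma receptor (-1.29 ± 0.33, adjusted p = 0.0273), and Socs1, a feedback inhibitor of Janus kinases (-1.51 ± 0.37, adjusted p = 0.0225, both edgeR). Ifngr1 measured 56.2 to 253 CPM at 37C and 276 to 455 at 4C, with no overlap. The summed T cell markers moved with it, at 618 to 2211 CPM at 37C and 1840 to 3473 at 4C, and T cells made up 8.93% to 28.3% and 30.5% to 47.1% of annotated cells. Within T cells Ifngr1 measured 527 to 857 CPM at 37C and 691 to 1164 at 4C, which overlap, and differed by -0.39 ± 0.36 (adjusted p = 0.563, edgeR). In tumour cells it had at most 3 UMIs in a library. Socs1 measured 55.0 to 79.0 CPM at 37C and 114 to 431 at 4C, from 6 to 13 UMIs a library. Its highest value, in the 4C library A with inhibitor, came from 10 UMIs, 3 of them in the 1 annotated macrophage. Within tumour cells Socs1 measured 67.8 to 115 CPM at 37C and 0 to 170 at 4C, which overlap. DESeq2 called 0 of the 43.

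In tumour cells without inhibitor 26 of the list were tested, and 22 had a negative and 4 a positive difference between 37C and 4C. Of all 1756 genes, 900 were negative and 856 positive. The median of the 26 was -0.83, beside -0.01 over all genes. With inhibitor, 10 of the 26 were negative and 16 positive, beside 841 and 915 of all genes. Their median was 0.34, beside 0.03 over all genes. Without inhibitor 2 fell and 1 rose, which is 11.5% of the 26 beside 2.11% of all genes. DESeq2 called 1 of these, Ifi47 (adjusted p = 0.0350), and 5 of all 1756 genes. In DESeq2 Igtp had an adjusted p of 0.0961 and Socs3 received none. Ifi47, an immunity-related GTPase, measured 206 and 177 CPM at 37C and 798 and 573 at 4C without inhibitor (-1.83 ± 0.40, adjusted p = 0.00499, edgeR). Igtp, also called Irgm3, measured 366 and 398 at 37C and 931 and 882 at 4C (-1.25 ± 0.33, adjusted p = 0.0264, edgeR). In both, the 37C pair lay below the 4C pair, as for Irgm1, an order whose share over all genes was not computed. With inhibitor Ifi47 differed by 0.47 ± 0.58 and Igtp by -0.09 ± 0.40, and neither passed.

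Socs3 was the exception. This inhibitor of cytokine receptors, best known for acting on STAT3 signals rather than on interferon responses, rose at 37C in tumour cells without inhibitor. It measured 515 and 407 CPM there, 136 and 153 at 37C with inhibitor, 33.3 and 66.1 at 4C without inhibitor, and 66.8 and 42.5 at 4C with inhibitor. The difference without inhibitor was 3.05 ± 0.59 (log2, SE; adjusted p = 0.00186, edgeR), and the difference with minus without inhibitor at 37C was -1.68 ± 0.35 (adjusted p = 0.00419, edgeR). The 4C values rest on 1 to 3 UMIs a library.

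Besides the described genes, those of the list with the most UMIs included Ifi27l2a (558), Igtp (388), Samhd1 (312), Lgals3bp (300), Irf8 (274), Ifi47 (263) and Cxcl10 (241). Of these named genes, Igtp and Ifi47 alone passed a temperature contrast in tumour cells. Cxcl10, a chemokine induced by interferon gamma, measured 195 and 717 CPM at 37C and 266 and 154 at 4C without inhibitor, so its difference of 1.21 ± 0.52 (adjusted p = 0.330, edgeR) rests on the 37C library B.

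**Figure D4:**
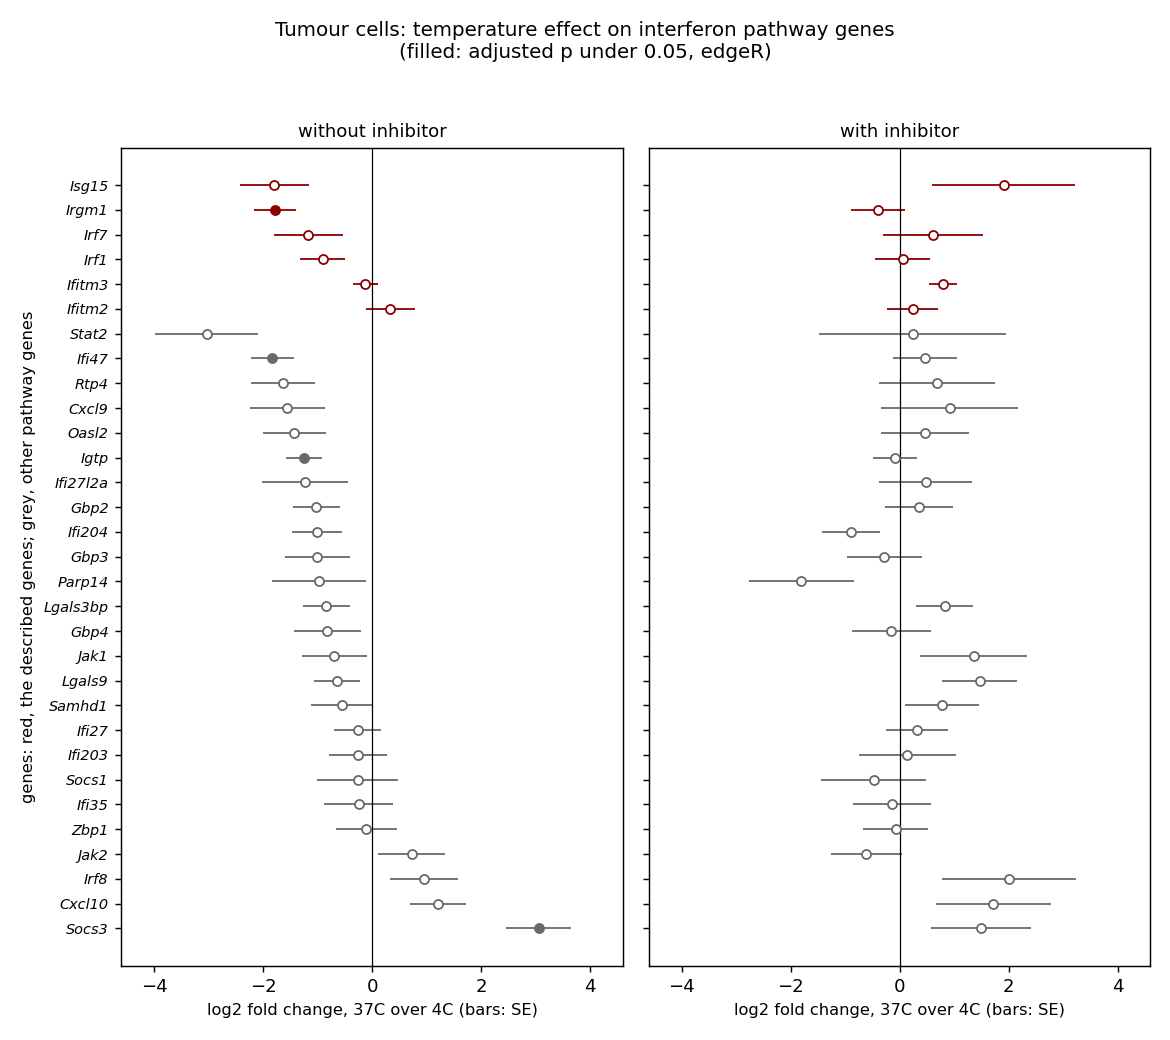
Log2 fold change of 37C over 4C in tumour cells (x axis, bars are SE) for the 6 tested interferon-stimulated genes (red) and 25 of the 26 other pathway genes (grey), without inhibitor on the left and with inhibitor on the right; filled points have an adjusted p under 0.05 in edgeR. Without inhibitor most points lie left of 0 and Irgm1, Ifi47 and Igtp are filled, with Socs3 filled on the right, and with inhibitor no point is filled.

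How alike the genes were was described over 23 sums of at least 10 cells of 1 type in 1 library, by the Pearson correlation of log2(CPM + 10). These sums share libraries and depth, so no p is given. Ifitm3 and Ifitm2 had the highest value among the 6 genes with at least 100 UMIs (0.59), followed by Irgm1 and Irf1 (0.44), and the other 13 pairs lay from -0.23 to 0.27. Among 1693 genes, Mt1 (0.86), Fn1 (0.86) and Ctsz (0.85) were most like Ifitm3, and Cst3 (0.84), Rps27a (0.83) and Psmb2 (0.81) most like Ifitm2. Irgm1 was most like Tra2a (0.71), Ctnna1 (0.71) and Pgls (0.71), and Irf1 most like 1810022K09Rik (0.78), Numa1 (0.69) and Actn4 (0.69). Irf7 was most like Gm42418 (0.72), Tyrobp (0.59) and Fcer1g (0.59), and Isg15 most like Qars (0.81), Ndufv1 (0.69) and Emc6 (0.66).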

How the data were processed

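The 8 library tables hold raw counts of UMIs per gene and barcode as the authors deposited them, not normalised. The deposited expression table holds the natural log of scaled counts, checked on its values: 99.99% were proportional to the raw counts within 0.001. Per the submitters' processing notes, the build was GRCm38 and the tools were STAR 2.7.1a, UMI-tools, featureCounts 1.6.0, Seurat and SAMtools. The sources used here do not give their settings, the cell filters, the doublet handling or how cell types were named. A symbol was found for 17520 gene identifiers.

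Raw counts were summed per library over all annotated cells, tumour cells or T cells (a type needed 10 cells in every library), filtered by filterByExpr, scaled by TMM and fitted with 1 mean per group in edgeR 4.0.16 (glmQLFit, glmQLFTest, two-sided, Benjamini-Hochberg over all genes tested; R 4.3.3). An adjusted p under 0.05 was a call. Log2 differences are 37C minus 4C or with minus without inhibitor. On simulated counts 90 of 100 genes changed 4-fold and 94 of 100 changed 8-fold were recovered for the averaged temperature contrast in all annotated cells, and 8 unchanged genes were called. The changed genes had a mean over 10 counts a library and the spread was fixed, so smaller changes and sparser genes were not covered. Alternatives were DESeq2 1.42.0, other scaling, filters, depth and libraries left out. The 9 genes were named whatever their call, other pathway genes where called or among the 8 with most UMIs; 1 of these is not reported here. The genes and lists were chosen with earlier results of these data known.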

Additional observations from a re-analysis of the deposited data

How the results depend on the processing

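Counts of the described genes called were recomputed under each alternative. For temperature averaged over inhibitor in all annotated cells (2 called), summing aliquots gave 0 and thinning libraries to equal depth gave 0, with 438 genes tested in place of 3391, and leaving out 1 library gave 1 to 3. Without inhibitor (1 called), no filter gave 0, thinning 0, all barcodes 2 and leaving out 1 library 0 to 1. With inhibitor (1 called), thinning gave 0, all barcodes 2 and leaving out 1 library 0 to 1. In tumour cells, no filter gave 1 and summed aliquots 1 for the averaged contrast (0 called), no filter gave 0 without inhibitor (1 called) and 1 with inhibitor (0 called), and leaving out 1 library gave 0 to 1 in each. The cause of these moves was not tested. By the authors' log values 3 genes in place of 5 were highest in macrophages and 4 in place of 2 in tumour cells. Single-gene differences were followed for the 25 pairs of gene and contrast with an unadjusted p under 0.05 in edgeR, most of them not called. Under alternatives 302 kept their side of the threshold, 10 newly passed, 16 no longer did and 0 changed sign while called. All 16 losses fell on called pairs, while the 302 include uncalled pairs that stayed uncalled. The 302 therefore do not measure how stable the calls were. Without a filter the median of all genes moved from 0.04 to 0.53 in all annotated cells and from 0.02 to 0.79 in tumour cells for the averaged contrast, so fold changes there are relative to that shift. DESeq2 called 60 genes in place of 135 for the averaged contrast, and the same number of described genes. The A and B letters were not taken to pair the libraries, since their deviations correlated by more than 0.1 in 3 of 6 pairs of groups (0.01 to 0.37), which leaves some sharing. With the replicate block 2 described genes were called for the averaged contrast, no described gene's call changed, and the number of all genes called rose from 36 to 56 for temperature without inhibitor and from 0 to 5 for the inhibitor at 4C. Depth limits the 4C values, where tumour cells of a library summed to 14959 to 45375 UMIs.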
